A study of Mus musculus with 6 samples.

Results

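Immediate early genes are switched on within minutes of a stimulus, without new protein synthesis, and most of them code for transcription factors of the AP-1, Egr and Nr4a families. In the hippocampus they are best known as markers of recently active neurons, while astrocytes also induce several of them in response to growth factors, transmitters and injury. The 10 genes described here were chosen by name from 22086 annotated genes: the AP-1 subunits Fos, Fosb, Fosl2, Jun and Junb, the zinc finger factors Egr1 and Egr2, the nuclear receptor Nr4a1, the neuronal factor Npas4, and Arc, which codes for a synaptic protein that controls AMPA receptor trafficking. Each gene was followed by whichever of its transcripts collected the most reads.

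Polysomal mRNAs of hippocampal astrocytes were recovered by TRAP (translating ribosome affinity purification), in which tagged ribosomes are immunoprecipitated, from mice aged 6 weeks. All mice carried the Aldh1l1:L10a-eGFP transgene, which puts eGFP on the ribosomal protein L10a under an astrocyte promoter, and floxed Cx43 alleles (Cx43 fl/fl). Cx43KO mice (n = 3 libraries) also carried Cre under the human Gfap promoter, and their Cre-free littermates (Cx43FL, n = 3 libraries) served as controls. Whole hippocampi went into each extraction, and the number of animals behind a library is not given in the sources used here, so that p-values measure the spread between libraries, which may in part be technical. The counts on genes ranged from 14787303 to 15391214 in Cx43FL and from 16056347 to 34733473 in Cx43KO. Gja1, the gene of Cx43, had 1396, 1382 and 1264 reads in Cx43FL against 1405, 2449 and 3079 in Cx43KO. Its log2 fold change was 0.08 (SE, standard error, 0.28), and a loss of Cx43 mRNA was not seen in the libraries labelled Cx43KO. Counts per transcript do not show which part of Gja1 was read. According to the paper, Cre activity in brains of both genotypes was checked through β-galactosidase before other experiments. Prm1 had 0 counts in each Cx43FL library and reads in each Cx43KO library. It was the 1 gene called between the genotypes in these same data, so it is no independent check of the labels. The libraries of the genotypes did not overlap for 15.5% of all tested genes. Directions given for Cx43KO are those of the libraries so labelled.

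Cx43KO replicate 1 stood apart from the other libraries. The summed level of 12 astrocyte markers was 13947 CPM (counts scaled to a common library total, with TMM factors) in this library, 26813 and 38122 CPM in Cx43KO replicates 2 and 3, and 27687 to 31153 CPM in Cx43FL. The summed level of 16 neuron markers was 8669 CPM in Cx43KO replicate 1, 3455 and 4668 CPM in Cx43KO replicates 2 and 3, and 2407 to 3195 CPM in Cx43FL, and none of these markers was at 0 in any library. Oligodendrocyte and precursor markers, 8 in number, summed to 2541 CPM in Cx43KO replicate 1 and to between 573 and 956 CPM in the other libraries. Abundant markers carry most of such sums. In Cx43KO replicate 1 Slc1a2, Glul and Aldoc had 6122, 2906 and 2113 CPM, and Snap25 and Camk2a had 2761 and 2469 CPM. In this library Slc1a2, Gja1 and Slc4a4 lay within the range of Cx43FL, and the other astrocyte markers lay below it. How far these sums follow the cells sampled, the RNA per cell or the purity of the immunoprecipitation was not tested. The comparisons of the members are therefore given with and without Cx43KO replicate 1.

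Promoters of immediate early genes are read by factors that bind short elements, among them the CRE (bound by CREB), the CArG box (bound by SRF), the AP-1 site and the EGR site. The 250 bases before the start site are shown for Fos, Nr4a1 and Egr2. Fos was the member whose genotypes did not overlap, and Nr4a1 the member with the highest log2 fold change. Egr2 was, of the 8 members with a promoter, the one with a CArG box within these 250 bases. The sequences are from RefSeq on GRCm38.p6, all on the plus strand, at chr12:85473640-85473889 for Fos, chr15:101266596-101266845 for Nr4a1 and chr10:67537619-67537868 for Egr2. Capitals mark the CRE core TGACG, the EGR site GCGNGGGCG and the CArG box, each on either strand.
Fos: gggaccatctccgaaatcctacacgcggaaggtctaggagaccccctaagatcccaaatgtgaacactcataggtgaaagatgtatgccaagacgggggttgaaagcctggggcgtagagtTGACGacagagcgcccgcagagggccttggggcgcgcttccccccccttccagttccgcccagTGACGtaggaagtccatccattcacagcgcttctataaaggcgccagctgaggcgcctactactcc
Nr4a1: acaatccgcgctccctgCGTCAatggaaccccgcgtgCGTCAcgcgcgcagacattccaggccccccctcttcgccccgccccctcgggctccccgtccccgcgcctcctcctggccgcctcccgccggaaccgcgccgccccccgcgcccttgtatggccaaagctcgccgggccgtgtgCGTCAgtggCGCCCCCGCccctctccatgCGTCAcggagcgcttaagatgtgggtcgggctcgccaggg
Egr2: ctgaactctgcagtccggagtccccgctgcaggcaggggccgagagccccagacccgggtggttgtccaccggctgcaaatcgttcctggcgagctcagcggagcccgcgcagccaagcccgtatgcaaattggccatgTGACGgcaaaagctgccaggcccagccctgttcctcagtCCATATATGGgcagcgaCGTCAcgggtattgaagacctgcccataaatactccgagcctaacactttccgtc
Fos held the CRE core at -129 and -66, counted from the start site to the first base of the match. Nr4a1 held it at -233, -213, -69 and -40, with an EGR site at -60. Egr2 held it at -111 and -55, on both sides of a CArG box at -72. RefSeq promoters were matched for 8 members, Egr1 and Arc being without one. The CRE core was in a window of 6 of these 8 members (Fos, Fosb, Junb, Egr2, Npas4 and Nr4a1) and in 17.8% of all 32851 promoter windows of this length. EGR sites were in those of Fosb, Fosl2 and Nr4a1, against 4.70% of all windows, and a CArG box was in that of Egr2, against 1.47%. The AP-1 site TGANTCA and the whole CRE TGACGTCA, which contains the core, were in none of the 8, against 6.75% and 1.55% of all windows. Egr2 has several start sites, and the whole set of them was searched. A member counted where any of its windows held the motif, while the percentages are shares of single windows. The counts of members and the percentages are therefore not on the same unit. These matches describe letters and show no binding. Bases further upstream were not searched, so that a missing match does not mean that a promoter lacks the element.

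All 10 genes passed the filter on low counts, and none was called between the genotypes. A gene was called where edgeR's quasi-likelihood test gave a Benjamini-Hochberg adjusted p below 0.05 and the higher group averaged over 50 normalized counts. Junb, Egr2 and Npas4 averaged under 50 in both genotypes, so that they could not be called at any p. Their means were 39.6, 24.7 and 43.4 normalized counts in Cx43FL and 45.8, 23.5 and 40.2 in Cx43KO. A call was made for 1 of 13545 genes, or 0.00738%. That gene was Prm1, with 0 CPM in each Cx43FL library and 35.4, 26.7 and 21.8 CPM in Cx43KO replicates 1 to 3. DESeq2 with its prior on fold changes called 113 genes, or 0.834%, and 0 of the 10. At an unadjusted p below 0.05 edgeR picked 8.34% of all genes, 5.66% with a higher and 2.67% with a lower level in Cx43KO, and among the 10 it picked Fos, on the lower side. Fos was also the gene among the 10 in which the libraries of the genotypes did not overlap, being lower in Cx43KO, a pattern seen in 7.45% of all genes. In none of the 10 did all 3 Cx43KO libraries exceed all 3 Cx43FL libraries, a pattern seen in 8.08% of all genes. A positive log2 fold change was found for 5 of the 10 genes (Fosl2, Junb, Egr1, Arc and Nr4a1) and for 54.4% of all genes. The median log2 fold change of the 10 genes was 0.07, and that of all tested genes was 0.07. Without Cx43KO replicate 1 these medians were -0.38 and 0.00067, and that of the members other than Egr2 and Npas4, whose values then rest on libraries with 1 count, was -0.31.

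**Figure D1:**
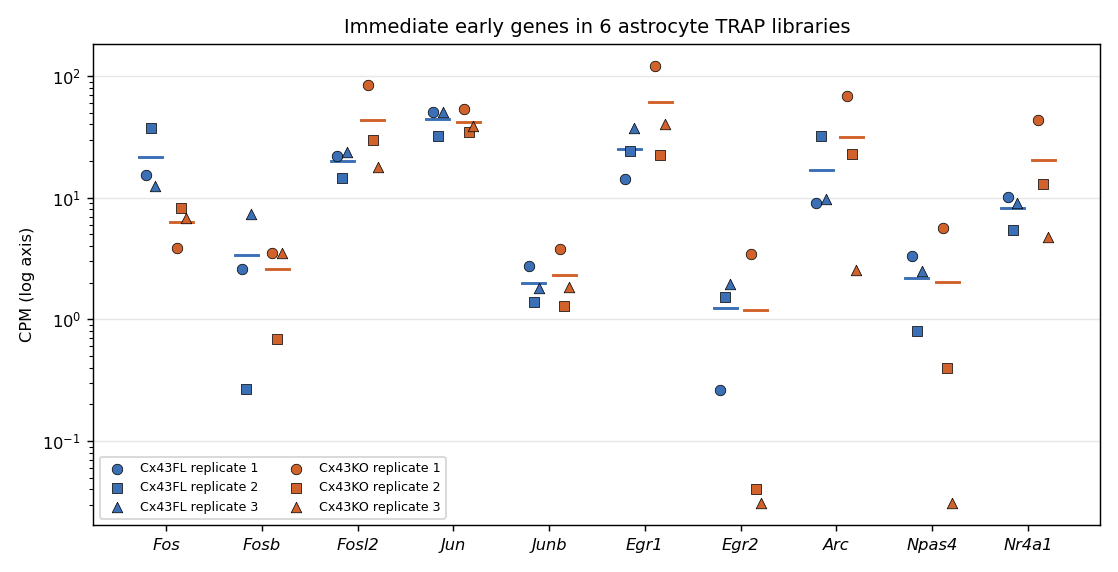
CPM (log axis) of the 10 immediate early genes in each library, blue for Cx43FL and orange for Cx43KO, with symbols for the replicate number and short lines for the mean of 3 libraries. Fos is the gene whose 3 Cx43KO points lie below all 3 Cx43FL points, and Cx43KO replicate 1 (orange circles) is the highest point in 8 of the 10 genes.

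Fos, the partner of Jun in the classical AP-1 dimer, lies on the plus strand of chromosome 12 of GRCm38 from 85473890 to 85477273 and has 4 exons. It had 232, 560 and 190 counts in Cx43FL replicates 1 to 3, or 15.3, 37.1 and 12.4 CPM. In Cx43KO replicates 1 to 3 it had 62, 204 and 219 counts, or 3.85, 8.20 and 6.76 CPM. Every Cx43KO library thus lay below every Cx43FL library, and the lowest value was that of Cx43KO replicate 1. On the scale of normalized counts, which refer to the mean library size, Fos stood at 428 ± 269 in Cx43FL against 124 ± 44.0 in Cx43KO (SD, n = 3). This is a log2 fold change of -1.78 (SE 0.64, 95% interval -3.19 to -0.37, edgeR unadjusted p = 0.0179 and adjusted p = 0.540). The adjusted p was 0.169 in DESeq2 with its prior. The exact 2-sided permutation test over the libraries gave p = 0.1, the smallest that 3 libraries against 3 allow. Without Cx43KO replicate 1 the log2 fold change was -1.54 (SE 0.62), and without Cx43FL replicate 2, the highest library, it was -1.15 (SE 0.71), with an unadjusted edgeR p of 0.138.

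The counts of Fos were spread unevenly over its transcript. A shorter annotated transcript, Fos-204, shares 729 of the 2108 bases of the main transcript, or 34.6% of its length, from the second exon to the beginning of the last, and reads were counted on each transcript they touch. It also has an exon of its own, so that the counts given for the shared stretch are upper limits. Counts on the shorter transcript amounted to 26 of 232, 0 of 560 and 30 of 190 in Cx43FL replicates 1 to 3. In Cx43KO replicates 1 to 3 they amounted to 4 of 62, 68 of 204 and 4 of 219. At most 33.3% of the Fos counts of a library therefore fell on these middle exons, and in the library with the most Fos counts, Cx43FL replicate 2, 0 of 560 did, which allows a share of up to 0.536% by counting error alone. Amplified reads are not independent molecules, and such limits do not cover amplification.

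The genotypes were separate in the rest of the transcript, its first exon and most of its last. Outside the shorter transcript Fos had 13.6, 37.1 and 10.4 CPM in Cx43FL replicates 1 to 3, against 3.60, 5.47 and 6.64 CPM in Cx43KO replicates 1 to 3. That part holds most of the same Fos counts, which already showed this order, as did 7.45% of all genes. It is therefore no separate support. On the shorter transcript Fos had 1.71, 0 and 1.95 CPM in Cx43FL and 0.248, 2.73 and 0.123 CPM in Cx43KO, with overlapping genotypes. These values rest on 0 to 68 counts a library, and whether the genotypes differ by exon was not tested. With the counts of all 4 transcripts of Fos added up, which takes shared reads more than once, the log2 fold change was -1.42.

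**Figure D2:**
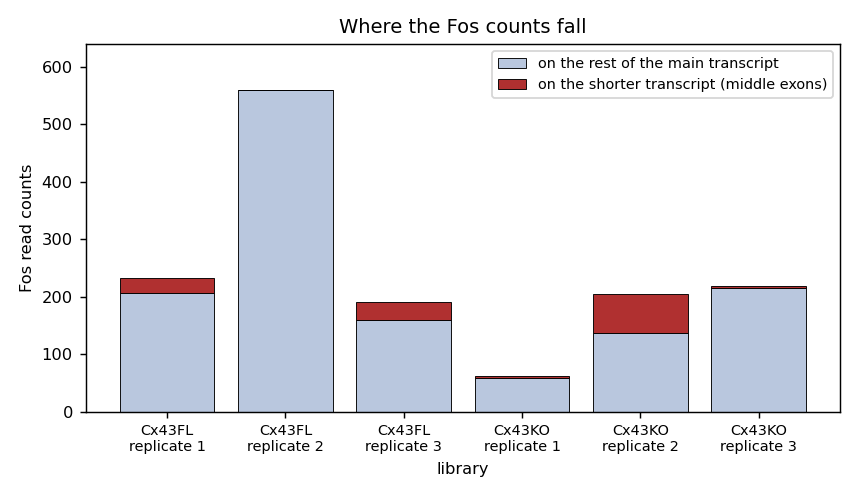
Read counts of the main Fos transcript in each library, as bars divided into counts on the shorter transcript that covers the middle exons (red) and the remaining counts (blue). The red part runs from 0 of 560 counts in Cx43FL replicate 2 to 68 of 204 counts in Cx43KO replicate 2.

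Fosb, a Fos relative whose shortened splice form accumulates on repeated stimulation, lies on the minus strand of chromosome 7 (19302696 to 19310051). It had 39, 4 and 112 reads in Cx43FL replicates 1 to 3, against 57, 17 and 114 in Cx43KO replicates 1 to 3. Counts were uneven within both genotypes, and the libraries overlapped. Fosb had a log2 fold change of -0.39 (SE 1.25, edgeR adjusted p = 0.941), and of -0.68 (SE 1.40) without Cx43KO replicate 1. A single Fosb transcript was counted, so that splice forms could not be told apart.

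Fosl2 codes for Fra-2, a Fos-related subunit that tends to stay present after Fos has decayed (chromosome 5, 32135801 to 32157842). Its levels were 22.1, 14.6 and 23.6 CPM in Cx43FL replicates 1 to 3, against 83.7, 30.02 and 17.8 CPM in Cx43KO replicates 1 to 3. Cx43KO replicates 1 and 2 lay above all Cx43FL libraries and Cx43KO replicate 3 lay among them. Fosl2 had a log2 fold change of 1.12 (SE 0.57, edgeR adjusted p = 0.609). Without Cx43KO replicate 1 it was 0.25 (SE 0.47).

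Jun, the main partner of the Fos proteins, is a gene of a single exon on the minus strand of chromosome 4 (95049034 to 95052222). It varied least among the 10 between its highest and lowest library, with 50.7, 32.1 and 50.2 CPM in Cx43FL replicates 1 to 3, against 53.1, 34.8 and 38.7 CPM in Cx43KO replicates 1 to 3. Its highest library was 1.66 times its lowest. The log2 fold change of Jun was -0.07 (SE 0.37, 95% interval -0.90 to 0.75, edgeR adjusted p = 0.970), and -0.27 (SE 0.37) without Cx43KO replicate 1. The antisense gene Junos overlaps 232 of its 3189 bases, and reads of the 2 strands cannot be told apart there, the strand not being stated for the counting. Junb, a weaker activator that can restrain Jun, had 42, 21 and 28 reads in Cx43FL, against 61, 32 and 60 in Cx43KO (chromosome 8, 84976910 to 84978718). That is 1.39 to 2.77 CPM in Cx43FL against 1.29 to 3.79 CPM in Cx43KO. For Junb the log2 fold change was 0.21 (SE 1.06, edgeR adjusted p = 0.969), and without Cx43KO replicate 1 it was -0.35 (SE 1.26).

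Ratios between members do not depend on the scaling of a library. There were 0.301, 1.16 and 0.246 Fos counts per Jun count in Cx43FL replicates 1 to 3, against 0.0724, 0.236 and 0.175 in Cx43KO replicates 1 to 3. Per Fosl2 count there were 0.693, 2.55 and 0.523 Fos counts in Cx43FL and 0.0460, 0.273 and 0.381 in Cx43KO. In both ratios the Cx43KO libraries lay below the Cx43FL libraries, by a narrow margin for Jun. Fos alone already showed this order, as did 7.45% of all genes, so that these ratios are no separate support. The share of gene pairs with such ratios was not computed. Per Egr1 count there were 1.06, 1.53 and 0.330 Fos counts in Cx43FL and 0.0317, 0.368 and 0.169 in Cx43KO, and here Cx43KO replicate 2 lay above Cx43FL replicate 3. The Fos counts per Nr4a1 count were 1.497, 6.83 and 1.37 in Cx43FL against 0.0887, 0.628 and 1.41 in Cx43KO, so that they overlapped as well. The Fos counts per Arc count also overlapped, from 1.17 to 1.71 in Cx43FL and from 0.0562 to 2.67 in Cx43KO.

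Egr1, a zinc finger factor induced by growth factors and synaptic activity, lies on chromosome 18 (34859823 to 34864984). It had 218, 366 and 575 counts in Cx43FL replicates 1 to 3, or 14.4, 24.3 and 37.4 CPM. In Cx43KO replicates 1 to 3 it had 1953, 555 and 1297 counts, or 121, 22.3 and 40.04 CPM. Cx43KO replicate 1 was far above the rest, while Cx43KO replicate 2 lay within the range of Cx43FL. The log2 fold change was 1.27 (SE 0.61, 95% interval -0.07 to 2.61, edgeR adjusted p = 0.600), and without Cx43KO replicate 1 it was 0.29 (SE 0.49). The counts were the same on both annotated Egr1 transcripts in every library, as reads were counted on each.

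Egr2, which in peripheral nerve drives myelination, was almost absent from part of the libraries (chromosome 10, 67537869 to 67542188). It had 4, 23 and 30 reads in Cx43FL replicates 1 to 3, against 56, 1 and 1 in Cx43KO replicates 1 to 3. The single counts of Cx43KO replicates 2 and 3 are under the detection floor of 3 counts. Without Cx43KO replicate 1 the fitted log2 fold change was -4.93 (SE 2.06), which rests on these 2 counts and gives no bound on a fold. Over all libraries the log2 fold change was -0.10 (SE 1.69, edgeR adjusted p = 0.993).

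Arc, whose mRNA travels into dendrites of active neurons, lies on the minus strand of chromosome 15 (74669083 to 74672568). Reads of Arc numbered 136, 480 and 151 in Cx43FL replicates 1 to 3, or 8.96, 31.8 and 9.83 CPM. They numbered 1104, 572 and 82 in Cx43KO replicates 1 to 3, or 68.5, 23.0 and 2.53 CPM. Both the highest and the lowest library were Cx43KO libraries, 27.1 times apart. For Arc the log2 fold change came to 0.89 (SE 0.92, edgeR adjusted p = 0.779). Without Cx43KO replicate 1 it was -0.41 (SE 0.85).

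Npas4, a factor that in neurons responds to calcium influx and tunes inhibitory synapses, was sparse (chromosome 19, 4984355 to 4990316). It had 50, 12 and 38 counts in Cx43FL replicates 1 to 3, or 3.29, 0.796 and 2.47 CPM. Cx43KO replicates 1 to 3 had 91, 10 and 1 counts, or 5.65, 0.402 and 0.0309 CPM. Cx43KO replicate 1 was the highest library and the other Cx43KO libraries the lowest. Its log2 fold change was -0.12 (SE 1.51, edgeR adjusted p = 0.991), and without Cx43KO replicate 1 it was -3.32 (SE 1.75), a fitted value that rests on 10 and 1 counts, the latter under the floor of 3 counts. Nr4a1, an orphan nuclear receptor, lies on the same chromosome as Arc (chromosome 15, 101266846 to 101274795). It had 10.2, 5.44 and 9.05 CPM in Cx43FL replicates 1 to 3, against 43.4, 13.1 and 4.79 CPM in Cx43KO replicates 1 to 3. As for Arc, the Cx43KO libraries lay on both sides of the Cx43FL libraries. The log2 fold change of Nr4a1 was 1.31 (SE 0.77, edgeR adjusted p = 0.635), and without Cx43KO replicate 1 it was 0.11 (SE 0.72). The exact 2-sided permutation test gave p = 0.3 or more for each of the 9 members other than Fos.

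**Figure D3:**
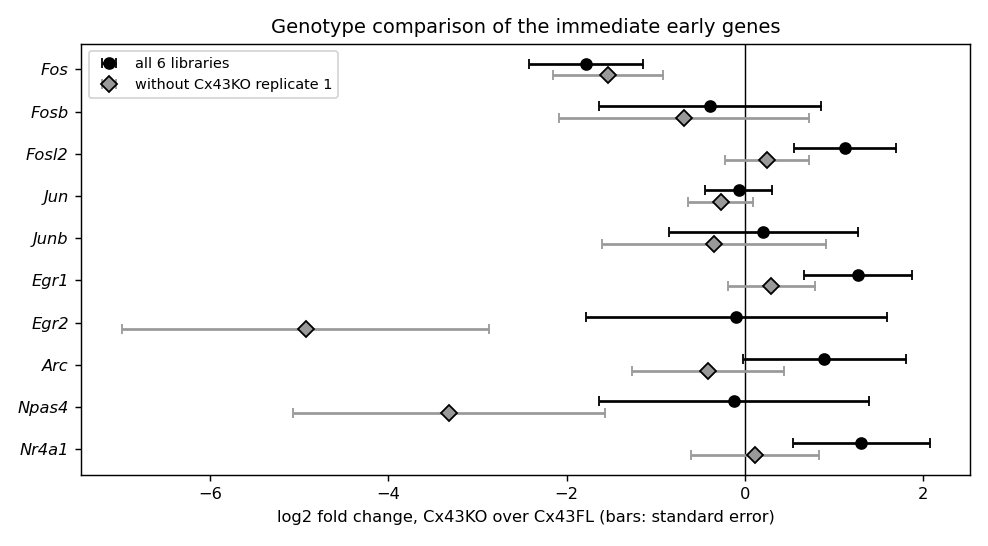
Log2 fold changes of Cx43KO over Cx43FL for the 10 genes, with standard errors as bars, over all 6 libraries (black circles) and without Cx43KO replicate 1 (grey diamonds). The values of Fosl2, Egr1 and Nr4a1 move from 1.12, 1.27 and 1.31 to 0.25, 0.29 and 0.11, that of Fos moves from -1.78 to -1.54, and those of Egr2 and Npas4 without this library rest on 2 and 11 Cx43KO counts.

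Cx43KO replicate 1 was the highest library for 8 of the 10 genes (Fosl2, Jun, Junb, Egr1, Egr2, Arc, Npas4 and Nr4a1) and for 30.3% of all tested genes. It was also the highest library for 15 of 16 neuron markers, and for 0 of 12 astrocyte markers. Fos and Fosb did not share this pattern, and for Fos this library was the lowest. Cx43KO replicate 3 was the lowest library for 4 of the 10 genes (Egr2, Arc, Npas4 and Nr4a1) and for 17.3% of all tested genes. All 16 neuron markers had a positive log2 fold change over the 6 libraries, with a median of 0.89, edgeR called 0 of them and 7 had an unadjusted p below 0.05. DESeq2 with its prior called Gad2. Without Cx43KO replicate 1 the neuron median was 0.16, with 12 of 16 positive. The astrocyte markers had a median of -0.03, and 0.14 without that library, and edgeR called none of the 12, with 1 at an unadjusted p below 0.05. What part the neuron content of a library has in the levels of these genes was not tested.

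The spread between libraries of a genotype was wide. The SD of log2(CPM + 0.5) over the 3 Cx43KO libraries was larger than over the 3 Cx43FL libraries for 7 of the 10 genes, and for 69.5% of all tested genes. The median SD of the 10 genes was 0.74 in Cx43FL and 1.18 in Cx43KO, and over all tested genes it was 0.42 and 0.65. Jun had the smallest SD of the 10 in Cx43KO, 0.31, and Arc the largest, 2.29. In Cx43FL the SD ran from 0.37 for Fosl2 and Jun to 1.68 for Fosb.

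**Figure D4:**
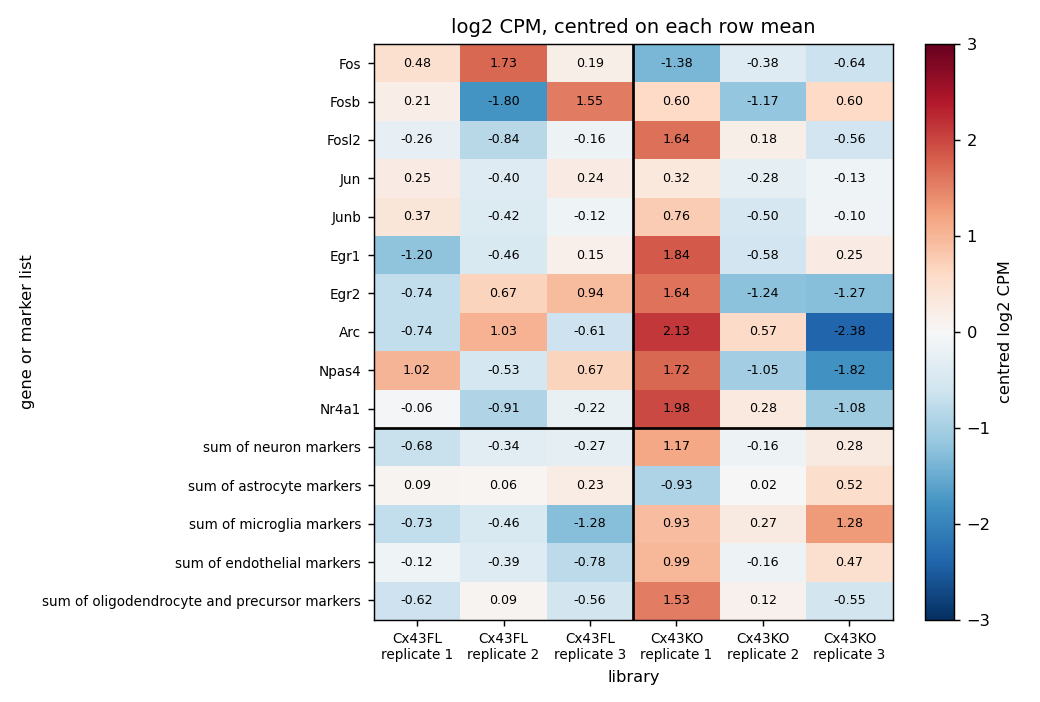
Log2(CPM + 0.5) of the 10 genes (above the line) and log2 of the summed CPM of 5 marker lists (below it) in the 6 libraries, each row centred on its mean. In Cx43KO replicate 1 the neuron marker sum lies at 1.17 and the astrocyte marker sum at -0.93, while Egr1, Arc and Nr4a1 lie at 1.84, 2.13 and 1.98 and Fos at -1.38.

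Per kb of transcript, Jun had the highest level of the 10 genes in 4 of 6 libraries, with a median of 15.7 CPM per kb in Cx43FL and 12.1 CPM per kb in Cx43KO. In Cx43FL the medians of Fos and Egr1 followed, at 7.25 and 5.41 CPM per kb, and Nr4a1, Fosl2 and Arc were close to each other at 3.65, 3.38 and 3.22. Fos led in Cx43FL replicate 2, at 17.6 CPM per kb, and Egr1 led in Cx43KO replicate 1, at 27.0 CPM per kb, where Fos stood at 1.83. The ranges of Fos, Egr1 and Arc over the Cx43FL libraries, 5.87 to 17.6, 3.20 to 8.35 and 2.93 to 10.4 CPM per kb, overlapped each other, as did those of Fos and Jun, so that their order is not resolved. In Cx43KO the medians of Egr1, Arc, Nr4a1, Fosl2 and Fos were 8.93, 7.52, 5.27, 4.59 and 3.21 CPM per kb. The Cx43KO ranges of neighbours in this order overlapped, while every Egr1 value lay above every Fos value. Junb, Npas4, Fosb and Egr2 formed the lower group in Cx43FL, with medians of 1.01, 0.683, 0.679 and 0.515 CPM per kb. Since counts are uneven along the Fos transcript, levels per length are rough.

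Among the 45 pairs of members, the profiles over the 6 libraries were closest for Jun and Junb, with a root mean square difference of 0.25 in centred log2(CPM + 0.5), and for Fosl2 and Nr4a1, with 0.27. The most distant pair was Fosb and Arc, at 2.15, and Fos and Fosb, which share a dimer partner, were 1.85 apart. Of 12312 other genes with a mean normalized count of at least 50, those nearest to Fos were Abcb9, Arg2 and Larp1b, at 0.13, 0.19 and 0.25. Nearest to Fosl2 were Mtus2, Dlg4 and Ncs1, at 0.09, 0.09 and 0.13, Dlg4 (PSD-95 of the postsynaptic density) being one of the neuron markers. For Nr4a1 they were Nhsl2, Shank2 and Kcnh7, at 0.18, 0.20 and 0.20, and for Egr1 they were Dnm3, Snx29 and Adarb1, at 0.18, 0.22 and 0.23. Naprt, Mindy2 and Ccnd3 lay nearest to Jun, at 0.06, 0.08 and 0.08. Shank2 is a postsynaptic scaffold, Kcnh7 a potassium channel and Ccnd3 a cyclin. Uxs1, Gm10260 and Sh3gl3 lay nearest to Arc, at 0.21, 0.26 and 0.28. Eepd1, Galnt4 and Gng4 lay nearest to Fosb, at 0.38, 0.41 and 0.41. With 6 libraries and so many genes, close profiles are a description only.

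Further immediate early transcription factors were mixed in sign. Of 18 listed, 17 could be tested, Atf3 being too low, and edgeR called none, with 1 at an unadjusted p below 0.05. Their log2 fold changes were positive for 7 and negative for 10, with a median of -0.11, and of -0.68 without Cx43KO replicate 1. The highest values were those of Fosl1 (1.75, standard error 1.53), the Fos relative Fra-1, Nr4a3 (1.44, standard error 0.66), a relative of Nr4a1, and Klf2 (0.31). The lowest were those of Maff (-1.93, standard error 1.51), Nfil3 (-1.37, standard error 1.24) and Csrnp1 (-1.26, standard error 0.86). The value of Nr4a3 was 0.41, that of Klf2 -0.51 and that of Nfil3 -2.43 without Cx43KO replicate 1. Csrnp1 was the only one of the 17 whose genotypes did not overlap, with 5.99, 7.03 and 6.06 CPM in Cx43FL against 3.85, 2.33 and 1.79 CPM in Cx43KO, while 15.5% of all genes did not overlap.

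Genes of the same early wave that feed back on signaling or act as effectors were tested in full, 20 of 20. None was called by edgeR, 2 had an unadjusted p below 0.05, and 13 values were positive (54.4% over all genes), their median being 0.21, and 0.14 without Cx43KO replicate 1. Sgk1, a kinase induced by serum and glucocorticoids, had 1036, 469 and 722 reads in Cx43FL replicates 1 to 3, against 2482, 2645 and 2782 in Cx43KO replicates 1 to 3. The Cx43KO libraries all exceeded the Cx43FL libraries, with a log2 fold change of 1.24 (SE 0.38, edgeR adjusted p = 0.510), and of 0.98 without Cx43KO replicate 1. The other high values were those of Sik1 (1.69, standard error 0.92), a CREB-restraining kinase, and Ccn1 (1.46, standard error 0.84), a matrix protein. Sik1 stood at 0.23 and Ccn1 at 1.64 without Cx43KO replicate 1. The lowest were those of Ier3 (-2.32, standard error 1.13), Gadd45g (-0.54, standard error 0.38) and the ERK phosphatase Dusp6 (-0.29, standard error 0.30). The genotypes did not overlap for 4 of the 20, of which 3 were higher in Cx43KO and 1, Dusp6, lower, and over all genes this was so for 15.5%.

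Delayed genes, which neurons induce after the early factors, were also divided in sign, with 4 positive and 4 negative values. Of 9 listed, 8 could be tested, Pcsk1 being too low, and edgeR called none, with 1 at an unadjusted p below 0.05. Their median log2 fold change was 0.01, and -0.19 without Cx43KO replicate 1. Scg2 (1.02, standard error 0.72), Vgf (0.85, standard error 1.02) and Nrn1 (0.73, standard error 0.32) had the highest values. Bdnf (-0.77, standard error 0.83), Homer1 (-0.45, standard error 0.36) and Inhba (-0.04, standard error 1.23) had the lowest. Leaving out Cx43KO replicate 1, Scg2 stood at 0.04, Nrn1 at 0.42, Vgf at 1.19, Inhba at -0.39 and Bdnf at -2.37 (SE 0.70, edgeR adjusted p = 0.421). Bdnf, the neurotrophin, had 187, 195 and 220 reads in Cx43FL, against 292, 61 and 86 in Cx43KO, so that it was lower in 2 Cx43KO libraries and higher in CPM in Cx43KO replicate 1.

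Kinases and factors that act upstream of the early genes had mostly positive values. All 26 could be tested, 20 had a positive log2 fold change (54.4% of all genes), none was called by edgeR and 3 had an unadjusted p below 0.05. For 6 of the 26 the Cx43KO libraries all exceeded the Cx43FL libraries, as for 8.08% of all genes. The median was 0.44, and 0.12 without Cx43KO replicate 1, which was the highest library for 15 of the 26. The SRF coactivators Mrtfb (1.48, standard error 0.54) and Mrtfa (1.03, standard error 0.46) and the neuronal kinase Camk4 (1.27, standard error 0.48) had the highest values, and Rps6ka5 (-0.73, standard error 0.73), Mapk3 (-0.19, standard error 0.28) and Rps6ka2 (-0.17, standard error 0.55) the lowest. With Cx43KO replicate 1 left out, Mrtfb stood at 0.73, Camk4 at 0.52 and Mrtfa at 1.07, and Rps6ka5, Mapk3 and Rps6ka2 stood at -1.36, -0.37 and -0.09. Heat shock genes, listed as signs of handling, had a median of -0.02 over 10 tested genes, with 0 called by edgeR and 1 at an unadjusted p below 0.05. Their highest values were those of Hsph1 (0.79), Hspa1a (0.45) and Hsp90aa1 (0.35), and their lowest those of Hspe1 (-0.64), Hspb1 (-0.58) and Dnaja1 (-0.31). When Cx43KO replicate 1 was left out, Hspa1a stood at 0.97, Hsph1 at 0.53, Hspe1 at -0.40, Hspb1 at -0.15 and Dnaja1 at -0.18.

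**Figure D5:**
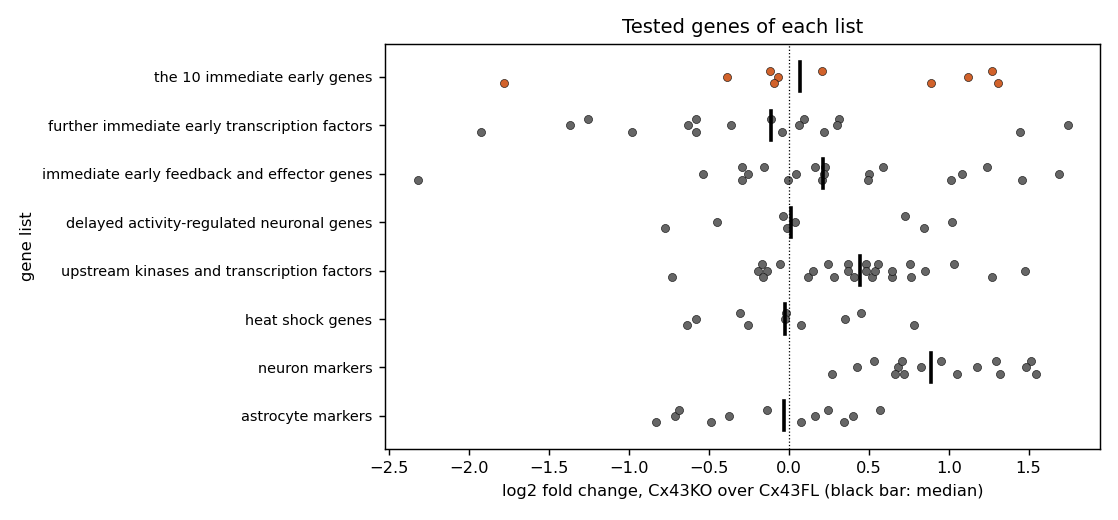
Log2 fold changes of Cx43KO over Cx43FL for the tested genes of each list, 1 point a gene, with the median as a black bar. The 10 immediate early genes (orange) spread from -1.78 to 1.31 around a median of 0.07, and the neuron markers lie at 0.27 to 1.55.

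The markers of other cell types give the setting of these values. Of 12 microglia markers 10 could be tested, with a median log2 fold change of 1.603, and 1.31 without Cx43KO replicate 1. Their summed levels were 30.4 to 53.8 CPM in Cx43FL against 89.0 to 179 CPM in Cx43KO. DESeq2 with its prior called Itgam, C1qb and C1qc. None was called by edgeR, with 5 at an unadjusted p below 0.05. Values were positive for 8 of the 10, and the lowest were those of Tmem119 (-0.23), P2ry12 (-0.20) and Cx3cr1 (0.13). Itgam had 37.9, 8.40 and 4.17 CPM in Cx43KO replicates 1 to 3, and C1qb had 7.95, 3.90 and 41.3 CPM. C1qa and Trem2 were too low to be tested. C1qa had 0, 0 and 4 counts in Cx43FL against 1, 88 and 83 in Cx43KO. Trem2 had 1, 0 and 3 against 0, 76 and 81. Of 10 endothelial markers 6 could be tested, summing to 6.64 to 10.5 CPM in Cx43FL against 10.2 to 22.7 CPM in Cx43KO, with a median log2 fold change of 1.17, and 0.75 without Cx43KO replicate 1. No endothelial marker was called by edgeR, with 0 of the 6 at an unadjusted p below 0.05. Tek, Tie1, Pecam1 and Cdh5 were too low to be tested. Tek and Tie1 were at 0 in all 3 Cx43KO libraries. In Cx43FL Tek had 8, 0 and 0 counts and Tie1 had 12, 1 and 1. Cdh5 had 1, 3 and 3 counts in Cx43FL against 11, 4 and 101 in Cx43KO. Pecam1 had 4, 13 and 6 against 5, 2 and 12. The 8 oligodendrocyte and precursor markers had a median log2 fold change of 1.22, and 0.23 without Cx43KO replicate 1. Their part in the levels of the immediate early genes was not tested.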

How the data were processed

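Polysomal mRNAs of hippocampal astrocytes were sequenced in 3 Cx43FL and 3 Cx43KO libraries after amplification of a small RNA input. Within Eoulsan the authors filtered reads, aligned them by STAR to mm10, discarded those with several alignments, and deposited raw counts from HTSeq-count per Ensembl transcript, without normalization. Of 75466 transcripts, 73157 were matched to GENCODE M21 (GRCm38), giving 22086 genes, each taken at its most counted transcript. Genotypes were compared over all genes with edgeR 4.0.16 in R 4.3.3 (TMM, filterByExpr, quasi-likelihood test, genotype alone, Benjamini-Hochberg adjustment), and with DESeq2 1.42.0 as an alternative. Standard errors (SE) were derived from log2 fold changes and their F statistics. Other alternatives were size factors of DESeq2, other filters, a replicate block, added transcripts and leaving out each library. Permutation tests used log2(CPM + 0.5). On simulated data with 200 of 13545 genes shifted by a log2 fold change of 3, edgeR found 70% of them and made 5 false calls. Before TMM scaling, 3 counts amount to 0.0864 to 0.203 CPM. All pairs of libraries within a genotype differed by far more than sampling noise (chi-square over its degrees of freedom at least 33.7). The members, gene lists and tests were chosen with earlier results of these data known. Genes named beside the members are the 3 highest and 3 lowest of each of 5 gene lists and the 3 nearest profiles. Marker lists are given by counts and ranges. Markers called by DESeq2, the lowest microglia markers and the untested markers were named after their values were seen. Listed symbols with newer names, 4 in number, were matched by these. The labels name no batch. Numbers in the deposited library names run in one range for Cx43FL and in another for Cx43KO, and what they stand for is not stated. Any batch that followed them cannot be told apart from genotype.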

Additional observations from a re-analysis of the deposited data

How the results depend on the processing

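None of the 10 genes was called under any alternative. Calls again required a mean over 50 normalized counts, which Junb, Egr2 and Npas4 did not reach in either genotype of the main fit. The count of all genes called higher in Cx43KO was 1, and 0 with at least 10 counts in every library or with transcripts added up, 99 and 118 with DESeq2 with and without its prior, 2 with the replicate block, and 0 to 11 with a library left out, the 11 being without Cx43KO replicate 1. The count called lower was 0, and 14 and 19 with DESeq2. With the replicate block the log2 fold changes of Fosb, Inhba and Hspa1a turned to 0.21, 1.07 and -0.36, and no call among the 10 changed. Same-numbered libraries did not deviate together, the correlations being -0.036 to -0.0029. With a library left out, log2 fold changes ran from -2.06 to -1.15 for Fos, 0.247 to 1.498 for Fosl2, 0.29 to 1.67 for Egr1 and 0.11 to 1.77 for Nr4a1. They changed sign for Fosb (-0.95 to 0.86), Jun (-0.27 to 0.050), Junb (-0.35 to 0.50), Egr2 (-4.93 to 0.48), Arc (-0.41 to 1.72), Npas4 (-3.32 to 0.46), Klf2 (-0.51 to 0.64), Inhba (-0.59 to 1.95), Rps6ka2 (-0.57 to 0.065), Rps6ka5 (-1.36 to 0.14), Hspa1a (-1.46 to 0.97) and Hspb1 (-1.01 to 0.12), and the cause was not tested. With at least 10 counts in every library Fosb, Egr2 and Npas4 were not fitted. In every fit, that over all 6 libraries included, the spread of a gene was estimated over both genotypes together. This was also so where 2 libraries remained in a genotype. The medians of gene lists without Cx43KO replicate 1, and that of the members other than Egr2 and Npas4, were chosen after the data were seen.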
